A study of Mus musculus with 6 samples.

Results

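The transcription factors of the Tcf/Lef family and genes that canonical Wnt signaling is known to switch on were followed in the dorsal midbrain of *Ezh2* cko and control mouse embryos at embryonic day 10.5. The 10 genes were listed by name, but with earlier results of these data known. Every probe set that the annotation of the platform assigns to 1 of them alone was taken. This gave 20 probe sets of 9 genes, among 45037 probe sets tested and 18193 genes measured. The signal of *Tcf7* is not analysed here. Total RNA of 3 *Ezh2* cko and 3 control midbrains was hybridized to Affymetrix A430 arrays, 1 array per sample, on the C57BL/6 background. *Ezh2* cko embryos carried Wnt1-Cre and loxP sites on both copies of the *Ezh2* segment that encodes the SET domain, the catalytic part of the histone methyltransferase. By the methods, embryos with no Cre, and embryos with Cre and 1 intact copy of *Ezh2*, served as controls in the study, while the labels give every control as WT, so that the kinds cannot be told apart. Since some controls may have lacked Cre, the presence of Wnt1-Cre and the loss of *Ezh2* cannot be fully told apart either. Each group came from 2 litters, which the labels do not assign to samples. Wnt1-Cre is also active in the neural crest, and the study describes incomplete recombination in the rostral part of the dorsal midbrain at a later stage.

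In canonical Wnt signaling, a Wnt ligand bound to a Frizzled receptor and to LRP5 or LRP6 stops the complex of Axin, APC and the kinases GSK3 and CK1 from marking beta-catenin for degradation. Beta-catenin then enters the nucleus and joins Tcf/Lef proteins on DNA, where they otherwise recruit corepressors of the Groucho/TLE family. Many of the genes switched on in this way encode inhibitors of the pathway, and their mRNA is widely read as a measure of its activity. In the midbrain, *Wnt1* and beta-catenin are known to sustain the neuroepithelium, and a loss of this input reduces the growth of the tissue.

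None of the 20 probe sets passed the test, and the differences were small. At a Benjamini-Hochberg adjusted p under 0.05 from limma, 0 were higher and 0 were lower in the *Ezh2* cko, where 0.184% of all probe sets passed toward higher and 0.00444% toward lower signal (0.189% in either direction). At an unadjusted p under 0.05, 3 were higher (2 of *Lef1* and 1 of *Nkd1*) and 0 were lower, and over all probe sets 4.49% were higher and 3.06% lower at this level. With the methods' t-test, 0 passed the adjusted p and 4 were at an unadjusted p under 0.05. Of all 45037 probe sets, 0 and 3025 did so in that test. No member reached the threshold that the methods give for the arrays, which joins a minimum fold change to an unadjusted p of 0.01 or less, in limma or in the methods' t-test, while 0.26% of all probe sets did in limma. The log2 differences, *Ezh2* cko minus control, lay between -0.15 and 0.37, and their 95% intervals between -0.45 and 0.68, which corresponds to 0.734-fold and 1.60-fold. These intervals are not adjusted for the number of probe sets. Precision is limited by the small number of arrays, and the p-values measure the spread between these samples, each a separately dissected midbrain. Since the 3 samples of a group came from 2 litters, some share a litter, and the test treats them as independent.

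The sign of the small differences was uneven. Of the 20 probe sets, 15 had a positive and 5 a negative difference, while 43.1% of all probe sets had a positive one. In 6 of the 20, from *Lef1*, *Nkd1* and *Znrf3*, the lowest *Ezh2* cko array exceeded the highest control, which held for 5.72% of all probe sets. The reverse order held in 0 of the 20, against 7.27% of all probe sets. Several of these probe sets belong to the same gene and all share the same arrays, so they are not separate pieces of evidence. With 1 probe set per gene, that of the brightest average signal, 7 of 9 genes had a positive difference, and the median over the 9 was 0.13, beside -0.02 over all 18193 genes. In bulk tissue, more RNA of a gene per cell and more cells that express it cannot be told apart.

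**Figure D1:**
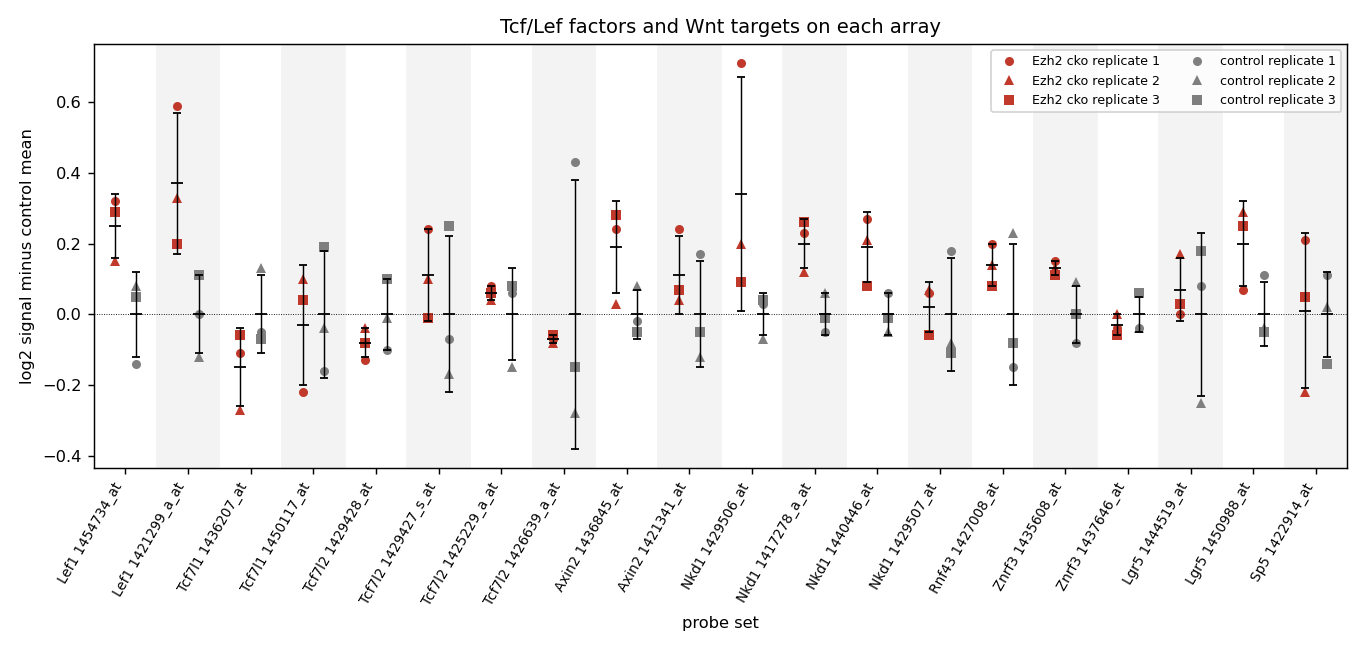
Deviation of the log2 signal from the mean of the 3 controls (y axis) for each of the 20 probe sets (x axis), with *Ezh2* cko arrays in red on the left and control arrays in grey on the right of each position. Symbols mark the replicate number, and black lines give the mean and SD of 3 arrays. The red points of *Lef1* and of 3 of the 4 *Nkd1* probe sets lie above all grey points of the same probe set, and most others overlap.

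*Lef1* encodes the family member that acts mostly as an activator with beta-catenin and is itself a target of the pathway. Its brighter probe set, 1454734_at, had log2 signals of 10.75, 10.58 and 10.72 in the *Ezh2* cko, against 10.29, 10.51 and 10.48 in controls. The groups did not overlap, although the lowest *Ezh2* cko array lay only a little above the highest control. The means were 10.68 ± 0.09 and 10.43 ± 0.12 (SD, n = 3 each), a difference of 0.26 (standard error 0.09, 95% interval 0.05 to 0.46, unadjusted p = 0.0202, adjusted p = 0.540 from limma). The other probe set, 1421299_a_at, gave 6.46, 6.20 and 6.07 in the *Ezh2* cko and 5.87, 5.75 and 5.98 in controls. Here too all *Ezh2* cko arrays were the higher ones, with replicate 1 the highest. This difference was 0.37 (standard error 0.11, 95% interval 0.11 to 0.64), the largest of the 20, and it did not pass over the whole array either (adjusted p = 0.437). For both probe sets the exact permutation test, two-sided, gave p = 0.1, the smallest that 3 arrays against 3 allow. Both 95% intervals lay above 0, from 1.04-fold to 1.38-fold for the brighter probe set and from 1.08-fold to 1.55-fold for the other. With each array left out in turn, the difference of the brighter probe set stayed positive, from 0.19 without control replicate 1 to 0.31 without *Ezh2* cko replicate 2, and did not pass the adjusted p.

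*Tcf7l1* encodes the family member best known as a repressor in the absence of Wnt signal. Its brighter probe set, 1436207_at, was at 9.53, 9.37 and 9.58 in the *Ezh2* cko and at 9.59, 9.77 and 9.57 in controls. The groups overlapped narrowly, since *Ezh2* cko replicate 3 stood between control replicates 3 and 1. The difference was -0.15 (standard error 0.09, 95% interval -0.36 to 0.06, adjusted p = 0.786), the lowest of the 20. It was smaller without *Ezh2* cko replicate 2 (-0.083) or control replicate 2 (-0.084). The other probe set gave 9.18, 9.50 and 9.44 in the *Ezh2* cko and 9.24, 9.36 and 9.59 in controls, which overlapped throughout, with a difference of -0.03 (95% interval -0.30 to 0.24, adjusted p = 0.979).

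*Tcf7l2*, which encodes a factor that can activate or repress and is strongly expressed in the caudal forebrain next to the midbrain, was measured by 4 probe sets. The brightest, 1429428_at, was at 8.30, 8.39 and 8.35 in the *Ezh2* cko and at 8.33, 8.42 and 8.53 in controls, a difference of -0.08 (95% interval -0.26 to 0.11, adjusted p = 0.879). This value was -0.026 without control replicate 3 and -0.13 without control replicate 1. The 4 differences ranged from -0.08 to 0.11, 2 of them positive, and the groups overlapped in all 4. The widest spread came from 1426639_a_at, where control replicate 1 was at 4.70 and the other controls at 3.99 and 4.12, while the *Ezh2* cko arrays were at 4.20, 4.19 and 4.21.

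The start of *Lef1* is printed here because its signal separated the groups in both probe sets, and that of *Sp5* because it holds the motif of the family and its signal did not separate them. Both are windows of 300 bases, 250 before and 50 after the start of the gene, from RefSeq on GRCm38.p6, on the plus strand, written 5′ to 3′. Capitals mark CTTTG, the core of the motif bound by Tcf/Lef proteins, or its reverse complement, and in *Sp5* also the 7 letters CTTTGAT.
Lef1, chr3:131110047-131110346: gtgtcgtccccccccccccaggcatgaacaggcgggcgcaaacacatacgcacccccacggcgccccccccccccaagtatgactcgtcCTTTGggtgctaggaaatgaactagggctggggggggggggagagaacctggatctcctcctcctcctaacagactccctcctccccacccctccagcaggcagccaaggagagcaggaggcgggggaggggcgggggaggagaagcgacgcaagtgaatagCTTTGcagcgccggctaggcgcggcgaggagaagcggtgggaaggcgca
Sp5, chr2:70474673-70474972: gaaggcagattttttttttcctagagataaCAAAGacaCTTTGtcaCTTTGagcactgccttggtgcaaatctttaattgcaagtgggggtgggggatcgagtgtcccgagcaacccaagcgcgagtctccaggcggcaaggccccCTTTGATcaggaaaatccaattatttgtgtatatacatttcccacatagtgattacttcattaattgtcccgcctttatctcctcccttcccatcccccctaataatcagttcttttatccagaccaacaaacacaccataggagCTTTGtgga
RefSeq windows were at hand for 8 of the 10 listed genes, *Tcf7* included, 14 in all, since some genes have several starts. The longer motifs CTTTGAA and CTTTGAT, searched on both strands, occurred in 1 of the 14, that of *Sp5*, and in 8.65% of all 32851 windows. The core CTTTG, which both longer motifs contain and which was added after the sequences had been seen, occurred in 8 of the 14 and in 53.9% of all windows. The *Lef1* window above holds 2 copies of the core, at bases 90 to 94 and 252 to 256, and the *Sp5* window holds 5, of which the one at bases 147 to 151 belongs to CTTTGAT. The windows of *Axin2*, *Nkd1* and *Rnf43* hold none. Those of *Axin2* (chr11:108920099-108920398) and *Nkd1* (chr8:88527383-88527682) lie downstream of the first base of the gene, at 108917828 and 88521342. The sequence around these first bases was not searched. A match of letters does not show that a factor binds there. The member windows had a median GC content of 61.3% and a median ratio of observed to expected CpG of 0.541, beside 52.7% and 0.384 over all windows. Genes with several windows, such as *Lef1*, weigh more in these medians. The GC content of single member windows ranged from 42.0% to 76.3%.

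Among the targets that feed back on the pathway, *Nkd1* stood out most. It encodes Naked cuticle 1, which binds Dishevelled and dampens the signal. Its brightest probe set, 1429506_at, was at 9.91, 9.40 and 9.29 in the *Ezh2* cko and at 9.23, 9.13 and 9.24 in controls. All *Ezh2* cko arrays were higher, replicate 1 by far and replicate 3 only just. The difference was 0.33 (standard error 0.15, 95% interval -0.01 to 0.68, adjusted p = 0.677), and it was 0.15 without *Ezh2* cko replicate 1. The probe set 1417278_a_at gave 8.09, 7.98 and 8.12 in the *Ezh2* cko and 7.81, 7.92 and 7.85 in controls, a tighter separation that did not rest on replicate 1 (difference 0.20, 95% interval 0.02 to 0.38, adjusted p = 0.601). The probe set 1440446_at, at 6.51, 6.45 and 6.32 in the *Ezh2* cko and 6.30, 6.19 and 6.23 in controls, also had no overlap (0.19, adjusted p = 0.663). The remaining one, 1429507_at, did not follow. It was at 6.30, 6.31 and 6.18 in the *Ezh2* cko and at 6.42, 6.16 and 6.13 in controls, a difference of 0.02 (adjusted p = 0.977).

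*Axin2*, which encodes a scaffold of the complex that degrades beta-catenin and is the most used readout of the pathway, differed little. Its brighter probe set, 1436845_at, was at 9.65, 9.44 and 9.69 in the *Ezh2* cko and at 9.39, 9.49 and 9.36 in controls. *Ezh2* cko replicates 1 and 3 were above all controls, and replicate 2 lay among them. The means were 9.60 ± 0.13 and 9.41 ± 0.07 (SD, n = 3 each), a difference of 0.18 (standard error 0.09, 95% interval -0.02 to 0.39, adjusted p = 0.712). The dimmer probe set, 1421341_at, was at 4.68, 4.48 and 4.51 in the *Ezh2* cko and at 4.61, 4.32 and 4.39 in controls, with overlap (0.12, adjusted p = 0.849). For the brighter probe set the interval runs from 0.984-fold to 1.31-fold.

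*Znrf3* and *Rnf43* encode related membrane ubiquitin ligases that remove Frizzled receptors from the cell surface. The brighter probe set of *Znrf3*, 1435608_at, was at 8.59, 8.57 and 8.55 in the *Ezh2* cko and at 8.36, 8.53 and 8.44 in controls. The groups did not overlap, and the *Ezh2* cko arrays were the closer together (difference 0.13, 95% interval -0.05 to 0.30, adjusted p = 0.767). Its other probe set, at 5.54, 5.58 and 5.52 in the *Ezh2* cko and 5.54, 5.54 and 5.64 in controls, showed no such order (difference -0.03, adjusted p = 0.965). The 1 probe set of *Rnf43* was dim, below the median signal of 5.70 over all probe sets. It was at 4.50, 4.44 and 4.38 in the *Ezh2* cko and at 4.15, 4.53 and 4.22 in controls. Control replicate 2 was the highest of all arrays here, and the difference was 0.14 (95% interval -0.11 to 0.39, adjusted p = 0.829). It was 0.063 without control replicate 1 and 0.25 without control replicate 2.

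*Lgr5* encodes a receptor for R-spondins, secreted proteins that hold back ZNRF3 and RNF43. Its probe set 1444519_at was at 5.10, 5.27 and 5.13 in the *Ezh2* cko and at 5.18, 4.85 and 5.28 in controls, and the groups overlapped (difference 0.07, adjusted p = 0.939). The sign of this value turned without control replicate 2, to -0.06. Its probe set 1450988_at was at 4.58, 4.80 and 4.76 in the *Ezh2* cko and at 4.62, 4.47 and 4.46 in controls. Only *Ezh2* cko replicate 1 lay within the control range there (difference 0.20, 95% interval -0.01 to 0.40, adjusted p = 0.683). *Sp5* encodes a zinc finger factor that is a direct target of beta-catenin and represses other targets. It was at 8.90, 8.47 and 8.74 in the *Ezh2* cko and at 8.80, 8.71 and 8.55 in controls. The highest and the lowest array were both *Ezh2* cko, and the means of 8.70 ± 0.22 and 8.69 ± 0.12 (SD, n = 3 each) were nearly equal (difference 0.02, 95% interval -0.26 to 0.29, adjusted p = 0.989).

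**Figure D2:**
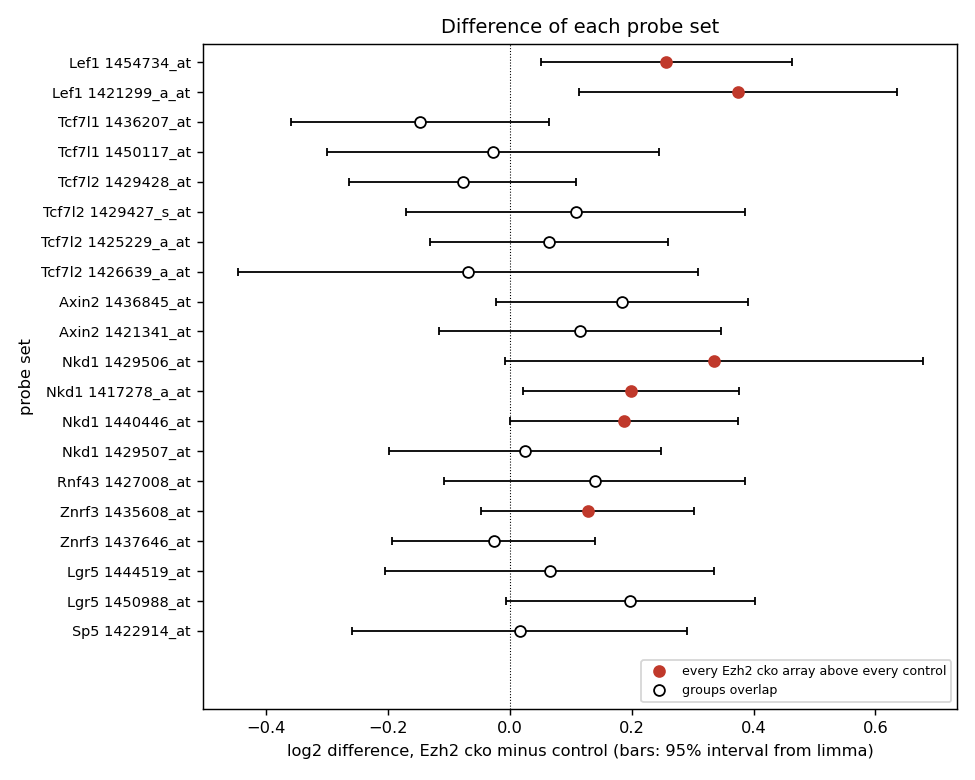
Log2 difference, *Ezh2* cko minus control (x axis), of each of the 20 probe sets (y axis), with the 95% interval from limma as bars. Filled red points are the 6 probe sets in which the groups did not overlap. The points lie between -0.15 and 0.37, and the intervals of both *Lef1* probe sets and of 1 *Nkd1* probe set lie to the right of 0.

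The rest of the pathway was set around the members with 4 further lists, each gene by its brightest probe set. Among 73 genes, 1 passed the test, the receptor gene *Fzd6*, and none fell. Over all genes 0.302% passed in either direction. At an unadjusted p under 0.05, 13 of the 73 were higher, a share that was 6.12% over all genes, and 1 was lower. The median difference of the 73 was 0.03, and 45 of them had a positive difference, a share that was 43.1% over all genes.

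Most of the other reported targets had a small positive difference. Of 18 measured, 0 passed the adjusted p, 6 were higher and 0 lower at an unadjusted p under 0.05, 16 had a positive difference and the median was 0.15. In 6 of the 18 all *Ezh2* cko arrays were above all controls, which held for 7.52% of all genes, and in 0 of the 18 all were below, which held for 7.88%. *Dkk1*, which encodes a secreted inhibitor that binds LRP6, was at 8.72, 8.37 and 7.92 in the *Ezh2* cko and 7.74, 7.69 and 7.72 in controls (difference 0.62, adjusted p = 0.378), and its other probe set gave 0.80 (adjusted p = 0.451). *Cd44*, which encodes a hyaluronan receptor, was at 8.10, 8.01 and 7.94 in the *Ezh2* cko and 7.37, 7.78 and 7.55 in controls (0.45, adjusted p = 0.291), while its 3 other probe sets gave 0.31, 0.04 and -0.03. *Msx1*, which encodes a homeobox factor of the dorsal midline, was at 10.41, 10.14 and 10.29 in the *Ezh2* cko and 9.80, 10.08 and 9.93 in controls (0.34, adjusted p = 0.425), and its other probe set gave 0.17 (adjusted p = 0.740). The groups did not overlap for these 3 genes, and none passed the test. *Ccnd1* and *Myc*, a cyclin gene and an oncogene often read as growth targets of the pathway, were added after their values had been seen. *Ccnd1* was at 12.55, 12.59 and 12.74 in the *Ezh2* cko and 12.66, 12.69 and 12.53 in controls (difference 0.0021, 95% interval -0.19 to 0.20), and its 2 other probe sets gave 0.09 and 0.25, neither past the test (adjusted p = 0.927 and 0.846). *Myc* was at 8.36, 8.33 and 8.13 in the *Ezh2* cko and 8.35, 8.45 and 8.02 in controls (0.0031, 95% interval -0.28 to 0.28). Both overlapped fully between the groups.

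Of 18 receptor and R-spondin genes, *Fzd6* rose 1.56-fold, 17 did not pass, and the median difference was 0.08. *Fzd6* encodes a Frizzled receptor, the kind of protein that ZNRF3 and RNF43 remove, and is mostly tied to planar cell polarity. Its log2 signal was 9.20, 9.03 and 9.12 in the *Ezh2* cko and 8.56, 8.45 and 8.43 in controls, far apart relative to the spread (difference 0.64, standard error 0.08, adjusted p = 0.0273). Leaving out any 1 of the 6 arrays ended the call (adjusted p = 0.0716 to 0.132), and the 2 other probe sets of the gene gave 0.29 and -0.09. *Rspo1*, which encodes a ligand of LGR5, was at 9.96, 9.69 and 9.94 in the *Ezh2* cko and 9.21, 9.44 and 9.32 in controls. The groups were clearly apart, yet the difference of 0.54 missed the threshold (adjusted p = 0.130). *Fzd5*, another Frizzled gene, was at 6.69, 6.43 and 6.48 in the *Ezh2* cko and 5.87, 6.06 and 6.43 in controls (0.41, adjusted p = 0.536), and its other probe set gave 0.02.

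The machinery between receptor and nucleus was centered close to 0. Of 19 genes for beta-catenin, its degradation complex and Dishevelled, 0 passed the adjusted p, 1 was higher and 1 lower at an unadjusted p under 0.05, 9 had a positive difference and the median was -0.00049. *Amer1*, which encodes a membrane adaptor of the degradation complex, was at 8.60, 8.45 and 8.36 in the *Ezh2* cko and 8.70, 8.83 and 8.75 in controls (-0.29, adjusted p = 0.429). All *Ezh2* cko arrays were below all controls in this probe set, and the other one of the gene gave -0.10 (adjusted p = 0.895). *Csnk1e*, a casein kinase 1 gene, had a difference of 0.22 with overlap (adjusted p = 0.713), while its 2 other probe sets gave 0.06 and -0.16. The Dishevelled gene *Dvl3* had 0.20 without overlap (adjusted p = 0.639). Of 18 nuclear partners of Tcf/Lef proteins, 0 passed, 2 were higher and 0 lower at an unadjusted p under 0.05, and the median was -0.0034. Both of those 2 encode Groucho/TLE corepressors. *Tle2* was at 6.75, 6.30 and 6.58 in the *Ezh2* cko and 6.12, 6.25 and 6.26 in controls (0.34, adjusted p = 0.537). *Tle4* was at 11.39, 11.44 and 11.41 in the *Ezh2* cko and 11.27, 11.13 and 11.25 in controls (0.20, adjusted p = 0.582), but its 2 other probe sets gave 0.09 and -0.17. *Bcl9l*, which encodes a coactivator of beta-catenin, had a difference of -0.10 with overlap (adjusted p = 0.872), and its 2 other probe sets gave 0.00016 and 0.12.

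**Figure D3:**
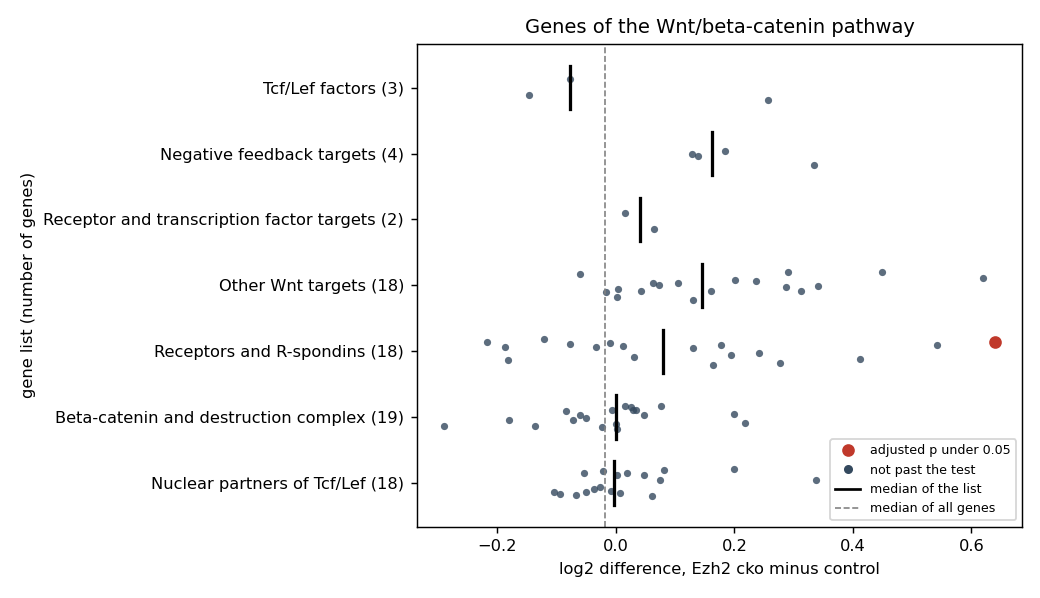
Log2 difference, *Ezh2* cko minus control (x axis), of each gene by its brightest probe set, in 7 lists of pathway genes (y axis, with the number of genes), with the median of each list as a black bar and that of all genes, -0.02, as a dashed line. The red point is *Fzd6*, the 1 gene past an adjusted p of 0.05. The medians of the feedback targets (0.16) and of the other Wnt targets (0.15) lie to the right of the dashed line, and those of the degradation complex and of the nuclear partners lie near it.

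The *Ezh2* probe set itself was at 11.79, 11.74 and 11.72 in the *Ezh2* cko and at 11.69, 11.76 and 11.66 in controls (adjusted p = 0.918). The tables used do not place it inside or outside the deleted segment, so it does not check the deletion. Of 9 midbrain and isthmus markers, 7 had a positive difference and 0 passed the adjusted p, and the median was 0.17. *Otx2*, a homeobox gene that marks the fore- and midbrain, was at 11.27 to 11.43 in the *Ezh2* cko and 11.16 to 11.40 in controls, and *En2*, a homeobox gene of the midbrain and isthmus, was at 12.42 to 12.63 in the *Ezh2* cko and 12.29 to 12.41 in controls. *Wnt1*, which encodes the ligand of the pathway in this tissue, is in this list and had its largest difference. It was at 8.63, 8.27 and 8.31 in the *Ezh2* cko and 7.65, 7.64 and 7.22 in controls, with the groups well apart (difference 0.90, 1.87-fold, 95% interval 0.58 to 1.23), and it reached the threshold of the methods but missed the adjusted p (0.0712 from limma). All *Ezh2* cko embryos carried Wnt1-Cre and some controls may not have. For *Wnt1* too, the presence of Wnt1-Cre and the loss of *Ezh2* cannot be fully told apart. *Lmx1b*, a LIM homeobox gene of the isthmus and roof plate, had a difference of 0.57 without overlap (adjusted p = 0.214). *Pax5*, a paired box gene of the isthmus, went the other way at -0.25 with overlap (adjusted p = 0.642). These markers were picked after their values had been seen.

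Markers of other cells also varied between the arrays. Among these other cell types, the neural crest list was the one whose level did not overlap between the groups, but its difference was not the largest. The median log2 difference was 0.36 for neuron, 0.34 for mesenchyme, 0.23 for macrophage and 0.11 for neural crest markers. Over the 9 member genes it was 0.13. For each list the median deviation of its genes from their own mean over the 6 arrays was taken. For the 6 member targets, *Axin2*, *Nkd1*, *Rnf43*, *Znrf3*, *Lgr5* and *Sp5*, it was 0.14, 0.05 and 0.02 in *Ezh2* cko replicates 1, 2 and 3 and -0.12, -0.0021 and -0.13 in control replicates 1, 2 and 3. For 9 midbrain and isthmus markers it was 0.27, 0.06 and -0.0034 in the *Ezh2* cko and -0.07, -0.14 and -0.11 in controls. In both lists *Ezh2* cko replicate 1 was the highest array. For 18 neuron markers, of which 17 had a positive difference and 0 passed the test, it was -0.08, 0.17 and 0.42 in the *Ezh2* cko and -0.47, -0.05 and -0.01 in controls. There *Ezh2* cko replicate 1 was the lowest of its group, below 2 of the controls. For 15 mesenchyme markers (13 positive, 0 past the test) the range was 0.03 to 0.19 in the *Ezh2* cko and -0.39 to 0.08 in controls, and for 11 macrophage markers (11 positive, 0 past the test) -0.01 to 0.19 and -0.39 to 0.11. Control replicate 1 was the lowest array in the neuron, mesenchyme, macrophage, neural crest, neural progenitor, endothelium and erythroid lists, and over the 9 member genes (-0.11). For 7 neural crest markers (6 positive, 0 past the test) the ranges, 0.02 to 0.14 in the *Ezh2* cko and -0.21 to -0.12 in controls, did not overlap. Of these 7, *Tfap2a* (0.55), *Ednrb* (0.47) and *Tfap2b* (0.43) had the largest differences, and *Ets1* had 0.11. *Erbb3* (0.06), *Foxd3* (0.0021) and *Sox10* (-0.06) were near 0. For 11 neural progenitor markers (5 positive, 0 past the test) the ranges were -0.05 to 0.11 and -0.05 to -0.02, for 11 endothelium markers (9 positive, 0 past the test) -0.09 to 0.16 and -0.10 to 0.03, and for 7 erythroid markers (3 positive, 0 past the test) -0.06 to 0.09 and -0.13 to 0.10. For 9 surface ectoderm markers they were 0.03 to 0.09 and -0.08 to 0.07. Of these 9, 5 were positive and 2 rose, the epithelial adhesion genes *Epcam* (1.33, adjusted p = 0.00368) and *Cdh1* (0.77, adjusted p = 0.0166). Over all genes, 43.1% had a positive difference and 6.12% were higher at an unadjusted p under 0.05 from limma. At that level 10 of 18 neuron, 7 of 15 mesenchyme, 3 of 7 neural crest and 3 of 9 surface ectoderm markers were higher. So were 2 of 11 neural progenitor and 1 of 11 macrophage markers, and 0 endothelium and 0 erythroid markers. Lower at that level were 1 mesenchyme and 2 neural progenitor markers. The part of these cell types in the differences of the Wnt targets was not tested. Without control replicate 1, 10 of the 20 member probe sets were higher with no overlap between the groups, beside 10.2% of all probe sets under the same omission, and none passed the adjusted p. This was the largest count, and with any other single array left out it was 6 to 8 of the 20, beside 8.96% to 10.7% of all probe sets.

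**Figure D4:**
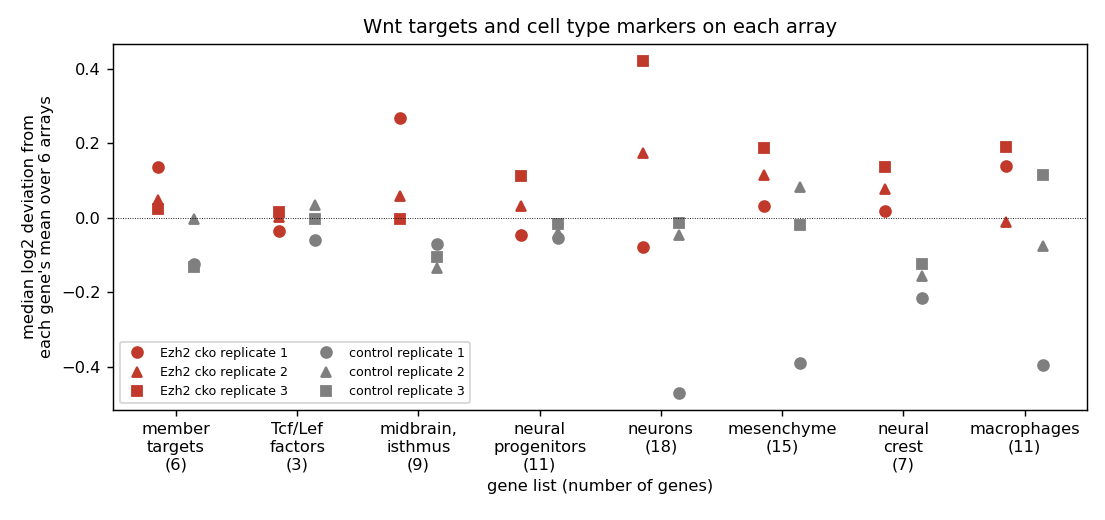
Median log2 deviation of the genes of a list from each gene's own mean over the 6 arrays (y axis), for the member targets, the Tcf/Lef factors and 6 lists of cell type markers (x axis, with the number of genes). *Ezh2* cko arrays are red and on the left, control arrays are grey and on the right, and symbols mark the replicate number. The member targets and the midbrain markers are highest on *Ezh2* cko replicate 1, and the neuron markers are highest on *Ezh2* cko replicate 3, at 0.42, and lowest on control replicate 1, at -0.47.

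Genes with a similar pattern were looked up for *Lef1* and *Axin2* among 9095 genes of above-median signal, by Pearson's r of the log2 signal over the 6 arrays. For *Lef1* the closest were *Cck* (r = 0.989), *Bmp6* (r = 0.988) and *Zc3hav1* (r = 0.987), with differences of 0.93, 0.56 and 0.55 between the groups, none past the test. For *Axin2* they were *Irs1* (r = 0.993), *Dock1* (r = 0.986) and *Rftn1* (r = 0.983), with differences of 0.09, 0.18 and 0.21, also not past the test. *Lef1* had 230 genes above an r of 0.9 and *Axin2* had 80. All points share the same 6 arrays, and with so few many genes reach such values.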

How the data were processed

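Each deposited value is the log2 signal of 1 probe set on 1 array, which the submitters made with RMA (version not given), a procedure that corrects background, brings the arrays to a shared distribution and summarises the probes of a set. A signal depends on its probes and has no level that marks absence, so each probe set was compared only with itself. The 64 control sets of the manufacturer were left out. For the remaining 45037, *Ezh2* cko minus control was estimated by lmFit and eBayes of limma 3.58.1 under R 4.3.3, and p-values were adjusted over all of them by the Benjamini-Hochberg method. The procedure was tested in 10 simulated runs. At a true log2 difference of 0.3 it found 0.3% of the altered probe sets, and at 1 it found 77%. Of its calls, 4.09% were false. The member differences lay near or below the smaller size, where the test finds almost nothing. The absence of calls among the members therefore does not show that their signal was unchanged. Symbols came from the annotation of the platform, brought up to date by Entrez identifier (34741 of 34945 found a match). The members and lists were chosen with earlier results of these data known. Named are all members, up to 3 genes per further pathway list with the largest absolute difference and any past the test, and 3 genes most like *Lef1* and *Axin2*. The signals of *Tcf7*, *Tbxt* and *Ephb2* are not analysed here, and a planned comparison of Tcf/Lef proteins was not run. Alternatives were the methods' t-test, other variance priors, array weights, filters, other normalizations, the threshold of the methods, the mean of all probe sets of a gene, the replicate number as a block, and leaving out each array in turn.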

Additional observations from a re-analysis of the deposited data

How the results depend on the processing

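No member probe set passed the adjusted p under any alternative run. Over the whole array, 85 probe sets passed with limma and 0 with the methods' t-test (3025 at an unadjusted p under 0.05, 61 at the threshold of the methods), and 21 to 46 passed with single arrays left out, the fewest without control replicate 2. The median difference of the members ranged from 0.11 to 0.13 over the other settings and from 0.09 to 0.17 with single arrays left out. The 1 other pathway gene past the test, *Fzd6*, was lost (0 genes) with the methods' t-test, the replicate block, the mean of all probe sets of a gene and the threshold of the methods, and the count was 0 to 0 without single arrays. With the replicate number as a block, 59 probe sets passed over the whole array. The numbers mark no shared litter in the labels. The correlations of same-numbered deviations were 0.06, -0.20 and 0.06, beside -0.16 to 0.12 for the pairs of unlike number. With 3 arrays a group, these values cannot show whether samples of the 2 groups shared a litter.

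The sign of *Sp5* turned with array weights (-0.010) and ranged from -0.084 to 0.13 without single arrays, and that of *Lgr5* from -0.062 to 0.15. *Tcf7l2* was at 0.0067 as the mean of its probe sets. The cause was not tested. The other signs of the 9 genes held in every setting that kept the gene. *Rnf43* and *Lgr5* had no value when dim probe sets, those below the median signal of 5.70, were left out. The median difference of the remaining members was then 0.13. With 3 arrays a group, differences such as 0.54 for *Rspo1* and 0.62 for *Dkk1*, with intervals above 0, did not pass the adjusted p, so that larger changes than those of the members also went uncalled.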

Other observations

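Some neural progenitor genes outside the Wnt pathway, each by its brightest probe set, had a larger absolute difference than any member, *Hes1* only just. Of the 11 genes of that list, 5 had a positive and 6 a negative difference, and the median was -0.03. *Fabp7*, which encodes a fatty acid binding protein of radial glia, was at 12.63, 12.85 and 12.96 in the *Ezh2* cko and 12.18, 12.34 and 12.45 in controls (log2 difference 0.49, adjusted p = 0.219 from limma). *Hes1*, which encodes a repressor induced by Notch, was at 8.89, 8.80 and 8.77 in the *Ezh2* cko and 8.43, 8.46 and 8.46 in controls (0.38, adjusted p = 0.148). *Sox3*, which encodes a factor of dividing neural progenitors, averaged 10.12 ± 0.14 in the *Ezh2* cko and 10.55 ± 0.18 in controls (SD, n = 3 each; -0.44, adjusted p = 0.325). The groups did not overlap for these 3 genes, and none of them passed the test. They were chosen as the largest differences of the progenitor list after their values had been seen.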
